A study of Rattus norvegicus with 10 samples.

Results

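Galectins and annexins were followed in cultured neonatal rat microglia, the resident macrophages of the brain, through 6 genes: the galectin genes Lgals1, Lgals3 and Lgals9 and the annexin genes Anxa1, Anxa2 and Anxa5. Every probe set whose only annotated symbol was one of these 6 was taken, which gave 9 of the 8799 probe sets on the array, for 6 of the 4736 genes with a probe set of their own. Lgals9, Anxa1 and Anxa5 had 2 probe sets each, and Lgals1, Lgals3 and Anxa2 had 1 each. A further probe set carries Lgals9 together with the galectin symbol Lgals5 and was therefore not a member.

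Interferon gamma (IFN-gamma), the main macrophage-activating cytokine of lymphocytes, was given to 3 microglial cultures at 100 U/ml for 16 hours, and culture 1 of these was measured on 3 technical arrays (1a, 1b and 1c). They were compared with 5 unstimulated control cultures (numbers 1, 2, 3, 5 and 6), described as independent, that received fresh medium alone. The cells of both groups came from neonatal brain, with no strain, sex or genotype given. They were grown with 15% fetal calf serum and plated on day 15, so each group stands for serum-grown cells at a single dose and a single time. Whether an IFN-gamma culture shared a brain or a day with the control of the same number is not stated.

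Galectins are lectins that bind beta-galactoside sugars on glycoproteins, both outside the cell and on damaged vesicles inside it. Galectin-1 (Lgals1) forms dimers, galectin-3 (Lgals3) has a single lectin domain on a self-associating tail and is a familiar marker of activated and phagocytic microglia, and galectin-9 (Lgals9) is a tandem-repeat galectin known in human cells as an interferon-inducible ligand of the receptor TIM-3. Annexins bind acidic phospholipids in the presence of calcium. Annexin A1 (Anxa1) is a glucocorticoid-induced mediator that acts through formyl peptide receptors and limits inflammation, annexin A2 (Anxa2) pairs with S100a10 at the plasma membrane where it assembles plasminogen and its activators, and annexin A5 (Anxa5) binds the phosphatidylserine exposed by dying cells.

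Upstream sequence was matched for 4 of the 6 genes (Lgals9, Anxa1, Anxa2 and Anxa5) from RefSeq promoter windows of rat assembly GRCr8, each 300 bases long and running from 250 bases before the listed start site to 50 bases after it. The windows of Lgals9, the only one of these genes with higher values under IFN-gamma, and of Anxa2, whose groups did not overlap, are shown because they were the clearest cases of each direction, a choice made after their values were seen. Capitals in Lgals9 (chr10:64428021-64428320, minus strand) mark a match to the interferon-stimulated response element, searched on both strands as GAAA, any pair of bases (NN) and GAAA again. Capitals in Anxa2 (chr8:78986002-78986301, plus strand) mark a TATA box, searched as TATAAA on both strands.
Lgals9: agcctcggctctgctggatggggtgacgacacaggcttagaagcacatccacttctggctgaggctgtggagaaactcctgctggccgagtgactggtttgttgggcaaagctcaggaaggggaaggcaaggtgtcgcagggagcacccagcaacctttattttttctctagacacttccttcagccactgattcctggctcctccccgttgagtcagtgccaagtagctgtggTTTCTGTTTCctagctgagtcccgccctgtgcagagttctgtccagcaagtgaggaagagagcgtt
Anxa2: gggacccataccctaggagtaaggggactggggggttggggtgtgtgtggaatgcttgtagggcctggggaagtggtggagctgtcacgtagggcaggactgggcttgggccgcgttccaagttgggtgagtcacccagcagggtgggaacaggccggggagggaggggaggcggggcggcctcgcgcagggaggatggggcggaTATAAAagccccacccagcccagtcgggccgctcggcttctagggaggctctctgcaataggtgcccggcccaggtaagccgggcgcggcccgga
The match in Lgals9 lay on the opposite strand and began 16 bases before the listed start. Of the 4 windows only that of Lgals9 held this element, which occurred in 3.92% of 33469 rat promoter windows of the same length. The gamma-activated sequence, searched as TTCNNNGAA on both strands, was in 0 of the 4 windows and in 8.87% of all. The TATA box was found in the windows of Anxa1, 46 bases before the start, and Anxa2, 45 bases before it, against 14.2% of all windows. The guanine- and cytosine-rich box searched as GGGCGG on both strands was found in Lgals9, Anxa2 (2 matches) and Anxa5 and in 33.1% of all windows. These matches describe letters in a window, and in these 4 windows no match to one element overlapped a match to another. For Lgals9, Anxa1 and Anxa5 the start site of the window lies inside the full annotated span of the gene, so other starts of these genes were not searched.

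Levels are given below as log2(signal + 16), quantile normalised over the 10 arrays, with technical arrays averaged. A signal of 0 would be 4 on this scale before normalisation, so values near 4 lie at the floor and their log2 fold changes are understated. Array medians of the deposited signal ranged from 11.1 to 23.7 over the 5 IFN-gamma arrays and from 7.4 (culture 3) to 20.2 over the 5 control arrays. Signal of the GAPDH array controls at the 3' end over that at the 5' end, which reflects RNA integrity, was 1.30 to 1.78 on IFN-gamma arrays and 1.33 to 1.81 on control arrays. That of beta-actin was 1.93 to 2.25 on IFN-gamma arrays and 1.51 to 2.29 on control arrays. The microglial label was checked by its 9 measured markers. Aif1, the calcium-binding protein Iba1, was at 8.24 with IFN-gamma and 7.81 in controls, and Cd14 at 8.28 with IFN-gamma and 8.63 in controls. The complement genes C1qb and C1qc were at 9.92 and 8.18 with IFN-gamma and 8.77 and 6.87 in controls. The lysozyme gene Lyz2 was at 12.44 with IFN-gamma and 10.84 in controls. C1qb, C1qc and Lyz2 were themselves called higher with IFN-gamma. Other markers were dimmer: Itgam and Ptprc were at 5.77 and 5.86 with IFN-gamma and 4.98 and 5.60 in controls. Csf1r and Cx3cr1 lay between 4.73 and 5.19 in the means of both groups.

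IFN-gamma moved none of the 9 probe sets past the threshold. With limma and Benjamini-Hochberg adjustment over 8740 probe sets, 0 of 9 had an adjusted p under 0.05, where 1.53% of all probe sets did (0.927% higher and 0.606% lower). The point estimates split by gene. All probe sets of Lgals1, Lgals3, Anxa1, Anxa2 and Anxa5 were lower with IFN-gamma and both of Lgals9 were higher, except that Lgals3 lay at 0.03 when arrays were not scaled to each other. The median log2 fold change of the 9 was -0.68, against -0.02 over all probe sets, of which 52.7% lay below 0. At an unadjusted p under 0.05, 6 members were lower and 1 was higher, where 4.76% and 5.74% of all probe sets were. Lower unadjusted values were more frequent among probe sets with a mean level of at least 6 (12.4% of 1525) than among those under 6 (3.15% of 7215), and 3 of the 9 members had such a mean. The unadjusted count of 7 was 3 with no scaling, 4 with array medians subtracted and 3 with a pseudocount of 1. It was 3 without IFN-gamma culture 2, 4 without IFN-gamma culture 3, and 5 to 7 under the other alternatives that kept all 9. Lower members alone were 1 with no scaling, where 1.1% of all probe sets were lower at that p, and 2 with array medians subtracted (3.08%). They were 2 with a pseudocount of 1 (4.42%), 3 without IFN-gamma culture 2 (3.49%) and 4 without IFN-gamma culture 3 (3.55%).

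**Figure D1:**
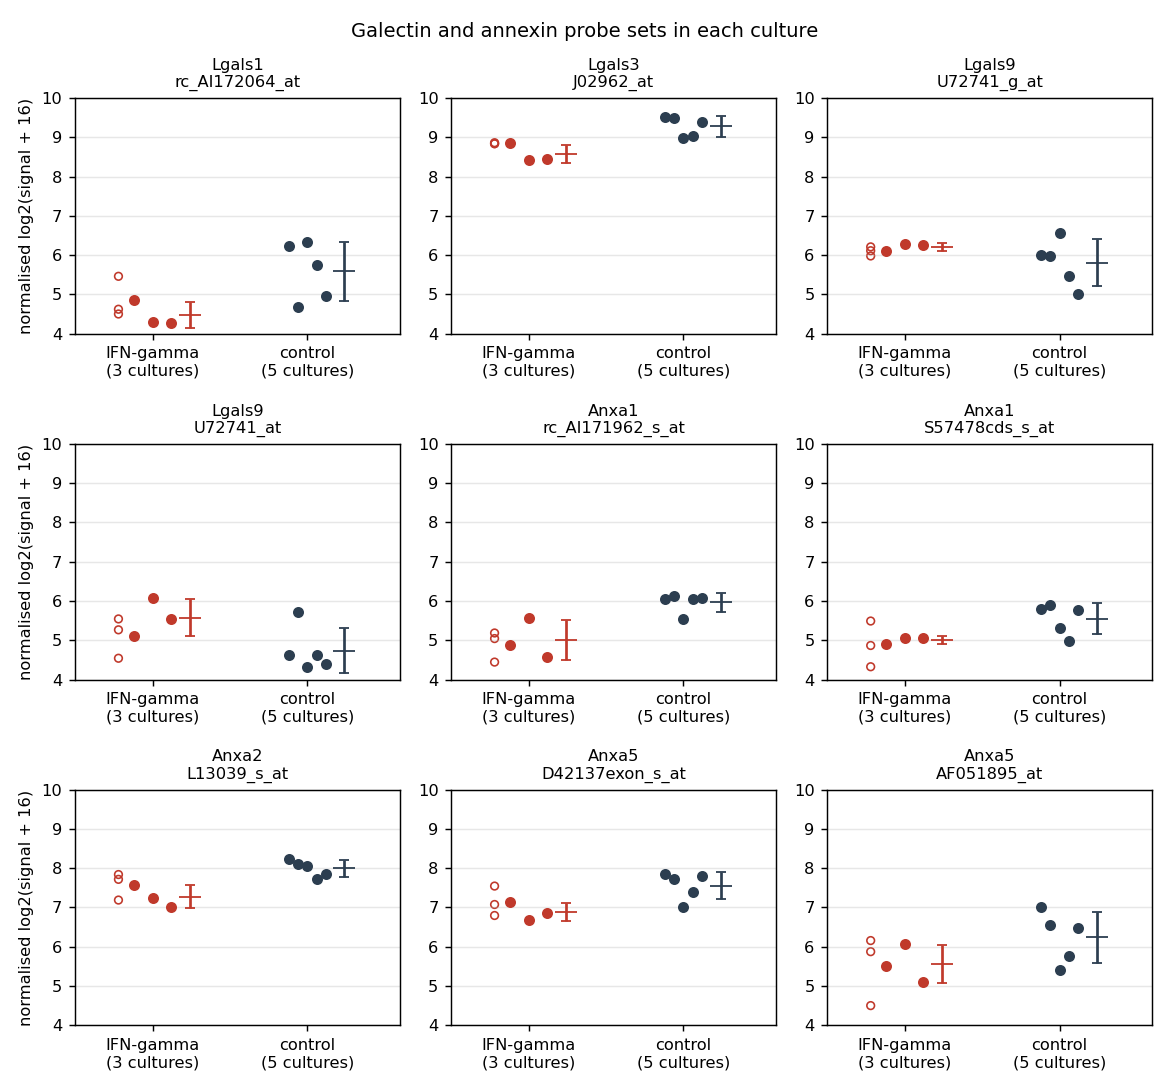
Normalised log2(signal + 16) of the 9 galectin and annexin probe sets, 1 panel each. Filled points are cultures (3 with IFN-gamma on the left, 5 controls on the right), open points the 3 technical arrays of IFN-gamma culture 1, and bars the mean and SD over cultures. Only Lgals3 and Anxa2 show IFN-gamma cultures that all lie below all controls, and neither did with unscaled arrays or array medians subtracted. Lgals3 also did not with a common trimmed mean, nor Anxa2 with array 1b alone for IFN-gamma culture 1.

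Lgals3, which encodes galectin-3, was at 8.84, 8.43 and 8.44 in IFN-gamma cultures 1, 2 and 3, against 9.51, 9.48, 8.98, 9.02 and 9.38 in control cultures 1, 2, 3, 5 and 6. All 3 IFN-gamma cultures thus lay below the lowest control, culture 3. Its mean was 8.57 ± 0.236 with IFN-gamma (SD, n = 3) and 9.27 ± 0.256 in controls (SD, n = 5), a log2 fold change of -0.70 ± 0.199 (SE; 95% interval -1.15 to -0.25) that did not pass (limma adjusted p = 0.176). Intervals here are per probe set and not adjusted for the number tested. The 3 technical arrays of culture 1 were nearly equal, with a range of 0.0248. Lgals3 was also the member whose estimate depended most on the scaling between arrays. It was -0.39 with signals scaled to a common trimmed mean, -0.09 with array medians subtracted and 0.03 with no scaling, where the median of all probe sets was at 0.10. The deposited signals themselves overlapped widely. They were 339.9, 1137 and 263.8 on arrays 1a, 1b and 1c and 455.5 and 582.5 in IFN-gamma cultures 2 and 3, against 1355, 405.7, 130.5, 441.6 and 817.8 in control cultures 1, 2, 3, 5 and 6.

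Lgals1, which encodes galectin-1, had a probe set near the floor under IFN-gamma, at 4.86, 4.30 and 4.28 in cultures 1, 2 and 3, against 6.23, 4.67, 6.35, 5.76 and 4.96 in control cultures 1, 2, 3, 5 and 6. The controls spread over more than the difference between the group means, and control culture 2 lay below IFN-gamma culture 1, so the groups overlapped. The mean was 4.48 ± 0.331 with IFN-gamma (SD, n = 3) and 5.59 ± 0.751 in controls (SD, n = 5). The log2 fold change of -1.11 ± 0.401 (SE; 95% interval -2.01 to -0.21) was the most negative of the 9 and did not pass (limma adjusted p = 0.329). It stayed between -1.15 and -1.02 under the other scalings but moved with the pseudocount, to -2.23 with a pseudocount of 1 and -0.49 with a pseudocount of 64, where Lgals3 was more negative at -0.63. Within IFN-gamma culture 1 the technical arrays read 5.46, 4.63 and 4.50 (1a, 1b and 1c), a technical spread of 0.522 (SD, n = 3).

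Lgals9, which encodes galectin-9, was the only member gene with higher values under IFN-gamma. Probe set U72741_at was at 5.12, 6.08 and 5.54 in IFN-gamma cultures 1, 2 and 3, against 4.62, 5.72, 4.32, 4.62 and 4.41 in control cultures 1, 2, 3, 5 and 6. Every IFN-gamma culture exceeded 4 of the 5 controls, and control culture 2 exceeded IFN-gamma cultures 1 and 3. Its log2 fold change was 0.84 ± 0.345 (SE; 95% interval 0.06 to 1.62; limma adjusted p = 0.415). Probe set U72741_g_at, annotated with the same sequence record, was at 6.10, 6.27 and 6.25 in IFN-gamma cultures 1, 2 and 3, against 6.01, 5.98, 6.57, 5.48 and 5.00 in control cultures 1, 2, 3, 5 and 6. The IFN-gamma cultures were tightly grouped (SD 0.0924, n = 3) inside the wider range of the controls (SD 0.594, n = 5), with control culture 3 above all of them. Its log2 fold change was 0.40 ± 0.317 (SE; 95% interval -0.31 to 1.11; limma adjusted p = 0.79). The probe sets ordered the controls differently: culture 2 was highest in the first and culture 3 in the second. The estimates ranged from 0.36 to 1.63 and from 0.02 to 0.76 over the alternatives, always above 0. The probe set shared with Lgals5, L21711_s_at, had a log2 fold change of 0.61 (95% interval -0.003 to 1.22; limma adjusted p = 0.479). Its groups overlapped, with control culture 6 (5.59) above IFN-gamma culture 1 (5.47), and it was not followed under the alternatives.

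Anxa1, which encodes annexin A1, was represented by 2 probe sets that both had lower values under IFN-gamma. The first, rc_AI171962_s_at, was at 4.89, 5.56 and 4.58 in IFN-gamma cultures 1, 2 and 3, against 6.05, 6.13, 5.54, 6.05 and 6.07 in control cultures 1, 2, 3, 5 and 6. Of the controls 4 were nearly equal, control culture 3 stood below them, and IFN-gamma culture 2 was level with that control, so the groups met at a single point. The log2 fold change was -0.96 ± 0.247 (SE; 95% interval -1.51 to -0.40), with the lowest adjusted p of any member (limma adjusted p = 0.129). Over the alternatives it ranged from -1.59 to -0.46 with adjusted p from 0.0602 to 0.689. The second, S57478cds_s_at, was at 4.90, 5.06 and 5.06 in IFN-gamma cultures 1, 2 and 3, against 5.79, 5.90, 5.32, 4.97 and 5.77 in control cultures 1, 2, 3, 5 and 6. Here control culture 5 lay among the IFN-gamma cultures. Its log2 fold change was -0.54 ± 0.234 (SE; 95% interval -1.07 to -0.02; limma adjusted p = 0.449). On both probe sets technical array 1c gave the lowest of the 3 readings of IFN-gamma culture 1 (4.45 and 4.33).

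Anxa2, which encodes annexin A2, was at 7.58, 7.25 and 7.00 in IFN-gamma cultures 1, 2 and 3, against 8.24, 8.10, 8.05, 7.72 and 7.84 in control cultures 1, 2, 3, 5 and 6. Each IFN-gamma culture lay below each control, with control culture 5 the nearest. The mean was 7.28 ± 0.291 with IFN-gamma (SD, n = 3) and 7.99 ± 0.209 in controls (SD, n = 5). The log2 fold change of -0.72 ± 0.195 (SE; 95% interval -1.16 to -0.28) corresponds to 1.64-fold lower on this scale and did not pass (limma adjusted p = 0.152). It was -0.59 with a common trimmed mean, -0.31 with array medians subtracted and -0.19 with no scaling. Separation of this kind, all IFN-gamma cultures below all controls, was found in 2 of the 9 members (Lgals3 and Anxa2) and in 3.4% of all probe sets, and the opposite separation in 0 members and 4.28% of all. The 2 became 0 with array medians subtracted or no scaling and 3 with a common trimmed mean (both Anxa1 probe sets and Anxa2). They became 4 without control culture 3 or without IFN-gamma culture 1. The 3.4% belongs to the main setting, and the share of all probe sets was not computed in the alternatives. With a culture left out, any probe set separates more easily, so these counts of 4 cannot be set against 3.4%. With array 1b alone for IFN-gamma culture 1 the separated members were Lgals1 and Lgals3, and Anxa2 was not among them.

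Anxa5, which encodes annexin A5, had 2 probe sets whose log2 fold changes were nearly equal under quantile normalisation although their levels and spreads were not. With array medians subtracted D42137exon_s_at was at -0.39 and AF051895_at at -0.63, and with no scaling D42137exon_s_at was at -0.27 and AF051895_at at -0.51. Without IFN-gamma culture 3, AF051895_at was at -0.44. D42137exon_s_at was at 7.14, 6.68 and 6.85 in IFN-gamma cultures 1, 2 and 3, against 7.84, 7.71, 7.02, 7.41 and 7.79 in control cultures 1, 2, 3, 5 and 6. The only overlap was between IFN-gamma culture 1 and control culture 3. Its log2 fold change was -0.67 ± 0.227 (SE; 95% interval -1.18 to -0.15; limma adjusted p = 0.29). AF051895_at was at 5.51, 6.06 and 5.11 in IFN-gamma cultures 1, 2 and 3, against 7.00, 6.55, 5.40, 5.77 and 6.47 in control cultures 1, 2, 3, 5 and 6. The groups overlapped over control cultures 3 and 5, and its log2 fold change of -0.68 ± 0.374 (SE; 95% interval -1.52 to 0.16) included 0 (limma adjusted p = 0.612). This probe set had the widest technical spread of the 9, since arrays 1a, 1b and 1c of IFN-gamma culture 1 read 5.88, 6.16 and 4.50, a range of 1.66. That range exceeds the one between the 3 IFN-gamma cultures.

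**Figure D2:**
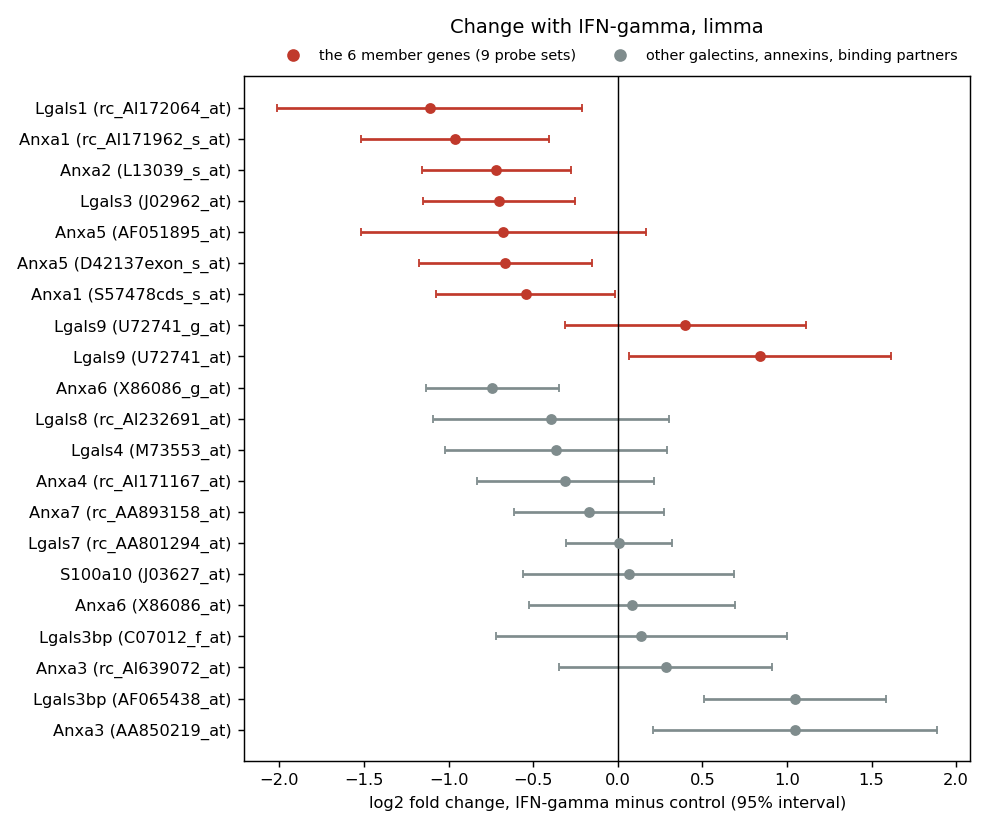
Log2 fold change of IFN-gamma minus control with its 95% interval from limma, for the 9 member probe sets (red) and the probe sets of other galectins, annexins and their binding partners (grey). Intervals of 6 members lie below 0, that of Lgals9 U72741_at lies above it, and those of Anxa5 AF051895_at and Lgals9 U72741_g_at include it. None of the 9 passed after adjustment, and the Lgals3 estimate was 0.03 without scaling between arrays.

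The opposite signs of Lgals9 and the other members were also looked at as ratios of deposited signals within an array, which a single scaling factor per array cannot change. The log2 ratio of deposited signals, Lgals9 (U72741_g_at) over Lgals3, was -3.19, -2.71 and -2.70 in IFN-gamma cultures 1, 2 and 3, against -4.42, -3.65, -2.02, -3.73 and -5.41 in control cultures 1, 2, 3, 5 and 6. The ratio was higher with IFN-gamma by 0.98 on average, but control culture 3 exceeded every IFN-gamma culture, so the groups overlapped. They also overlapped for Lgals9 over Anxa2 (1.22 higher with IFN-gamma) and for Lgals9 over Anxa5 (1.29 higher). Anxa2 over Lgals3 and Anxa5 over Anxa2 differed by -0.24 and -0.08, against SDs of 0.294 and 0.28 among the controls. The 5 pairs were picked after the values were seen and carry no test.

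**Figure D3:**
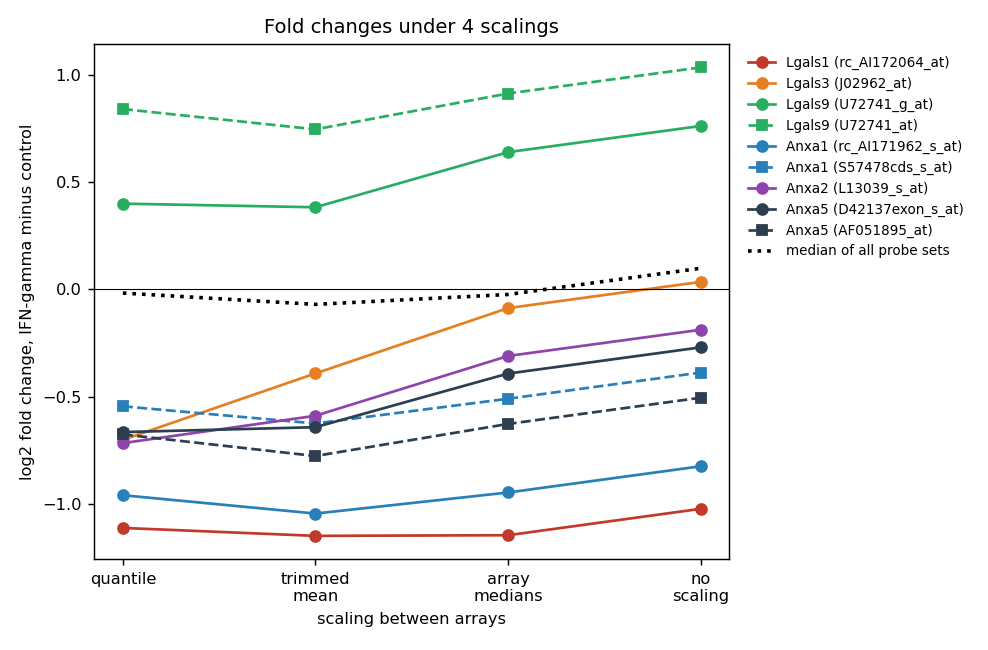
Log2 fold change of IFN-gamma minus control for each member probe set under 4 ways of scaling the arrays, with the median of all probe sets dotted. Lgals3 moves from -0.70 (quantile) to 0.03 (no scaling) while Lgals1 stays between -1.15 and -1.02, and 7 of the 9 members lie below the dotted median and Lgals9 above it under each of the 4.

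Leaving the arrays unscaled shifted the median of all probe sets to 0.10, from -0.02 under quantile normalisation. Measured against the median of all probe sets in the same setting, 7 of 9 members were lower under each of the 20 alternatives that kept all 9. Under the filter on a mean of at least 6, which kept Lgals3, Anxa2 and one probe set of Anxa5, 3 of 3 were lower. As many of all probe sets lie below a median as above it, and the alternatives reuse the same cultures. Of the 8740 probe sets 7215 had a mean under 6, so the median is mostly set by dim ones. None of the 9 passed under any of the 21 alternatives, and the lowest adjusted p reached was 0.0555, for Anxa2 under that filter.

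**Figure D4:**
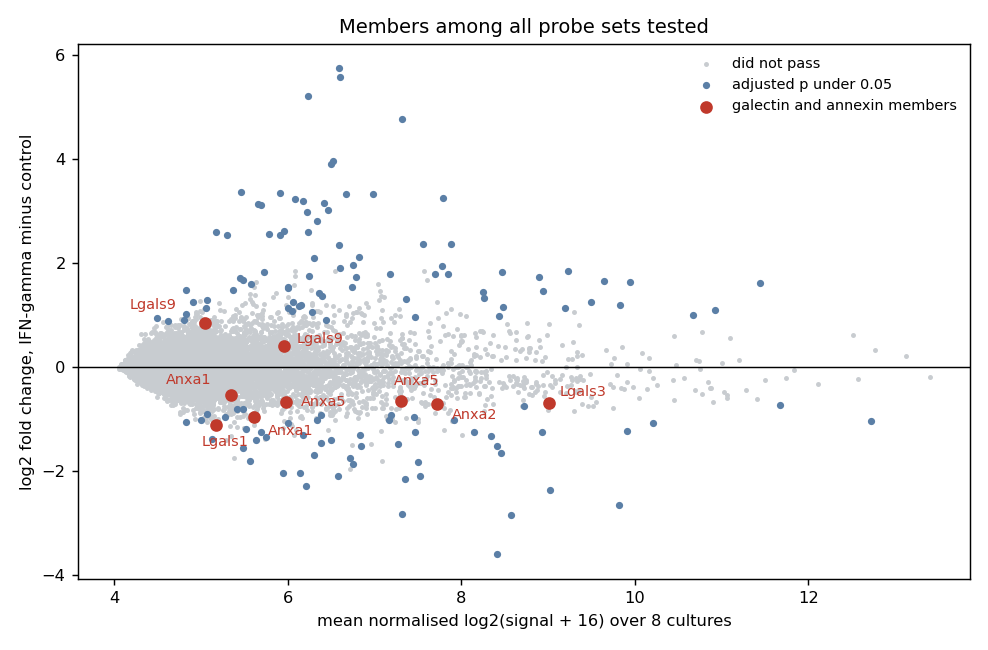
Mean level over the 8 cultures (horizontal, normalised log2(signal + 16)) against the log2 fold change of IFN-gamma minus control (vertical) for 8740 probe sets. The 9 members (red) lie between -1.11 and 0.84, among probe sets that did not pass (grey), and the 134 that passed are blue. The position of Lgals3 below 0 was not kept without scaling.

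Other members of both families gave no call. Of 9 listed galectins and galectin-binding proteins 4 were measured, and 0 passed (median log2 fold change -0.18, beside -0.02 over all probe sets). Lgals3bp, which encodes the secreted galectin-3-binding protein, came nearest by its brighter probe set. It was at 8.43, 8.73 and 8.29 in IFN-gamma cultures 1, 2 and 3, against 7.67, 6.87, 7.68, 7.24 and 7.73 in control cultures 1, 2, 3, 5 and 6. All IFN-gamma cultures lay above all controls, with a log2 fold change of 1.05 ± 0.238 (SE; limma adjusted p = 0.0814), and it passed in 3 of 21 alternatives. The other Lgals3bp probe set, of a kind that Affymetrix marks as shared within a sequence family, lay at 0.14 (adjusted p = 0.964). Lgals4, Lgals7 and Lgals8 lay between -0.39 and 0.00 and did not pass.

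Of 9 listed other annexins 4 were measured and 0 passed (median log2 fold change -0.24). Anxa6, whose product binds membranes of endosomes and the cell surface, was at 5.41, 5.72 and 5.12 in IFN-gamma cultures 1, 2 and 3, against 6.13, 6.21, 6.20, 6.02 and 6.23 in control cultures 1, 2, 3, 5 and 6. The groups did not overlap, and the log2 fold change of -0.74 ± 0.175 (SE) did not pass (limma adjusted p = 0.0947; 0.0483 with a pseudocount of 64), while the other Anxa6 probe set lay at 0.08. Anxa3 stood on the other side. It was at 6.98, 7.16 and 6.96 in IFN-gamma cultures 1, 2 and 3, against 6.39, 6.59, 5.84, 4.79 and 6.32 in control cultures 1, 2, 3, 5 and 6. Its log2 fold change was 1.05 ± 0.373 (SE; limma adjusted p = 0.322), and 0.28 by its dimmer probe set. Anxa4 and Anxa7 lay at -0.31 and -0.17 (adjusted p = 0.775 and 0.878).

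Binding partners were measured in part. S100a10, the partner of annexin A2, had a log2 fold change of 0.06 (95% interval -0.56 to 0.69; limma adjusted p = 0.98) and changed sign in 6 of 20 alternatives, the common trimmed mean among them. Of 8 listed S100 genes 6 were measured and 0 passed (median -0.04). Of 22 listed receptors and ligands of galectins and annexins 15 were measured, 1 was lower and 0 were higher (median -0.02). The gene that fell was Lamp1, a lysosomal membrane glycoprotein that galectins bind, with a log2 fold change of -1.25 ± 0.164 (SE; limma adjusted p = 0.0043). Its 3 other probe sets lay between -1.50 and -0.63 and did not pass. The call of Lamp1 held in 16 of 21 alternatives and was lost with no scaling, array medians subtracted, a common trimmed mean, a pseudocount of 1 and the culture number as a block (adjusted p between 0.166 and 0.938). Its log2 fold change was -0.54 with no scaling, -0.66 with array medians subtracted, -0.97 with a common trimmed mean, and -1.30 with a pseudocount of 1 and with the block. Of 18 listed genes for recognition of phosphatidylserine on dying cells 11 were measured, and 0 passed (median -0.34, 7 of 11 below 0). Their log2 fold changes ran from -1.48 to 0.27. At an unadjusted limma p under 0.05, 3 of the 11 were lower and 0 higher, where 4.76% and 5.74% of all probe sets were.

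Galectin-1 and annexins A1 and A2 are also made by astrocytes and fibroblasts, so markers of other cells were read beside them. Of 8 listed fibroblast and meningeal markers all 8 were measured and 0 passed, with 7 of 8 below 0 and a median log2 fold change of -0.39. Their summed level, as normalised signal, was 140.5 to 185.7 in IFN-gamma cultures and 215.4 to 298.8 in controls. At an unadjusted limma p under 0.05, 4 of these 8 markers were lower (Col1a2, Col3a1, Lum and Pdgfra), where 4.76% of all probe sets were. The collagen gene Col1a2 was at 5.31 with IFN-gamma and 6.02 in controls. Col1a1, counted below 0 at -2.7e-06, was at 5.83 in both. Of 10 listed astrocyte markers 8 were measured and 1 fell, the glutamine synthetase gene Glul, which macrophages also express. The brightest of its 4 probe sets was at 7.42 with IFN-gamma and 9.08 in controls (limma adjusted p = 0.00301). Another Glul probe set, rc_AI232783_s_at, lay at -0.59, short of the threshold (limma adjusted p = 0.383). Whether the Glul call held under the alternatives was not tested. The summed astrocyte level was 250.8 to 314.6 in IFN-gamma cultures and 561.5 to 920.6 in controls. Without Glul the other 7 markers summed to 108.3 to 139.5 in IFN-gamma cultures and 107.8 to 181.2 in controls, so the groups overlapped. The log2 fold changes of these 7 lay between -0.18 and 0.13, and the median of all 8 was -0.14. Among them Aqp4 and Gja1 lay near the floor, at 4.67 and 4.24 with IFN-gamma and 4.84 and 4.11 in controls. Slc1a3 and Slc1a2 lay higher, at 6.04 and 5.22 with IFN-gamma and 6.17 and 5.40 in controls. The listed marker Gfap had no probe set of its own. Of 9 measured microglia and macrophage markers 3 rose and 0 fell (C1qb, C1qc and Lyz2). The part of these markers in the galectin and annexin values was not tested, and in bulk RNA fewer cells of a type and less RNA per cell cannot be told apart.

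The probe sets most like each member were found by the Pearson correlation of normalised levels over all 8 cultures, among about 1200 probe sets of other genes with a mean of at least 6. Both groups enter these correlations, so a shared group difference raises them, and they are given as a description. Lgals3 was most like the chemokine gene Ccl2 (r = 0.965), Anxa5 (0.963) and the osteopontin gene Spp1 (0.963). Anxa5 in turn was most like Lgals3 (0.963), Ccl2 (0.942) and Pebp1 (0.928). Anxa2 was most like the interleukin gene Il1a (0.962), the myelin protein gene Pmp22 (0.961) and another probe set of Ccl2 (0.955). Anxa1 was most like the selenoprotein gene Selenop (0.954), the inhibitory receptor gene Sirpa (0.941) and Dync1li2 (0.938). Lgals1 was most like the autophagy gene Gabarap (0.98), Glul by rc_AI232783_s_at (0.894) and Vamp2 (0.893). That Glul probe set is not the one called above and did not pass (limma adjusted p = 0.383). Lgals9 was most like the chaperone gene Cdc37 (0.939), Xpnpep1 (0.888) and Nr2f6 (0.866). These neighbours depended on the scaling. Of the 18 pairs 3 stayed among the 3 most alike with array medians subtracted and 3 with a common trimmed mean, against 15 with a pseudocount of 1 and 16 with a pseudocount of 64.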

How the data were processed

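Total RNA from 3 IFN-gamma and 5 control cultures was hybridised to 10 Affymetrix rat arrays. The deposited values are 1 linear signal intensity per probe set and array. MAS5 and GCRMA are named without version in the submitters' processing notes, but their role in making these intensities is not given there. Because the deposited medians differed, log2(signal + 16) was quantile normalised over the 10 arrays, after which technical arrays were averaged and the culture was the replicate. The groups were compared by a two-sided limma fit (version 3.58.1, R 4.3.3; lmFit, then eBayes) with no term but group. Its p-values were adjusted by Benjamini and Hochberg's method over the 8740 probe sets left after 59 array controls were removed, and the threshold was 0.05. The number of cultures, 3 with IFN-gamma and 5 controls, limits the precision.

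Symbols came from the platform annotation, and all 9 member probe sets kept theirs through Entrez identifiers in RefSeq (GRCr8). No build is given for the array design. Where a list gene had several probe sets, its brightest stood for it. The rule for named genes took all member probe sets, each list gene past the threshold (up to 4 per list), a fixed set of relatives, and the 3 probe sets most like each member. The members, lists and quantile setting were chosen with earlier results of these data known. The limma step was tested on simulated data. The culture numbers 1, 2 and 3 occur in both groups, but deviations from the group means of same-numbered cultures correlated at -0.0266, 0.00383 and -0.0146, so no block was used. Alternatives covered scaling, pseudocount, a filter, technical arrays, a block, a variance trend and each culture left out.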

Additional observations from a re-analysis of the deposited data

Results flagged for a closer look

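Each of 27 probe sets of members and related genes was checked in the 5 controls for a culture standing apart, by the gap to its nearest neighbour over the range. About 1 in 20 groups would be marked by chance, and 2 were. In Lgals9 (U72741_at) control culture 2 stood above the others, at 5.72 against 4.32 to 4.62 (gap over range 0.784). Without it the log2 fold change was 1.11 (limma adjusted p = 0.104), against 0.84 with it. In Anxa1 (rc_AI171962_s_at) control culture 3, the dimmest array, stood below the others, at 5.54 against 6.05 to 6.13 (gap over range 0.86). Without it the log2 fold change was -1.11 (limma adjusted p = 0.0798), against -0.96 with it.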

How the results depend on the processing

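No member passed under any of the 21 alternatives, and each kept its direction except Lgals3, which lay at 0.035 with no scaling. The alternative without technical array 1c was added after the data were seen. Over all probe sets, 81 were higher and 53 lower. These became 38 and 1 with no scaling, 100 and 27 with array medians subtracted, 42 and 25 with a pseudocount of 1, and 124 and 73 with all 10 arrays and the culture as a random block. Leaving out 1 culture gave 47 to 105 higher and 21 to 48 lower, with the fewest calls when an IFN-gamma culture was left out. With the culture number as a replicate block 17 were higher and 5 lower, and 0 members passed. The block ended the call of Lamp1 and changed no other call among the named genes tested there. S100a10 lay at -0.012 with a common trimmed mean, -0.072 with array 1a alone, -0.069 with the block, and between -0.11 and 0.21 with 1 culture left out. Why these results moved was not tested. Lgals1, Lgals9 (U72741_at) and Anxa1 lie close enough to the floor that signal over background limits what can be read from them.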
